A study of Mus musculus with 6 samples.

Results

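The cells described here were fibroblast-like cells of the mouse fracture callus that carried the transcripts of the acute phase protein Saa3 or of the chemokine Cxcl5. Across the 6 single-cell libraries they were the barcodes with at least 3000 UMIs (unique molecular identifiers, each standing for 1 captured transcript) and at most 10% mitochondrial UMIs, with at least 3 UMIs of Lrrc15, Brinp3 and Grem1 together and at least 5 UMIs of Saa3 and Cxcl5 together, and with fewer than 5 UMIs of Chil1, fewer than 3 of Ihh, and at most 1 each of the leukocyte gene Ptprc and the endothelial gene Cdh5. These thresholds kept 1349 of the 30589 barcodes that passed the UMI and mitochondrial filter. They are called inflammatory fibroblasts below, a name for what the thresholds kept and not a test of each cell's type. Because Saa3, Cxcl5, Lrrc15, Brinp3 and Grem1 chose the cells, the levels of these genes are a description and were not tested.

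The calluses came from 12-week-old male mice, 14 days after a femoral fracture. The control mice, labelled wt, were Piezo1 f/f per the methods. The knockout mice carried the same alleles with Col2CreERT, an inducible Cre driven by the Col2a1 promoter, so that the deletion was aimed at cells that express Col2a1 and not at fibroblasts as such. The sample labels write the deleted gene as Piezo3-/-, whereas the title of the series and the methods name Piezo1. Per the study, both genotypes received tamoxifen (75 mg/kg) on 5 days in a row, the first dose on day 5 of healing. Each genotype had 3 libraries, named here control 1 to 3 and knockout 1 to 3. Replicate 1 of each genotype was processed with another Cell Ranger version than replicates 2 and 3, and replicate 3 of each genotype lists another set of gene identifiers. The libraries held 69361237, 77384286 and 80735192 UMIs in control 1, 2 and 3, and 57626530, 103784364 and 102513582 in knockout 1, 2 and 3. Among the filtered barcodes the median was 28605, 9111 and 8463.5 UMIs in control 1, 2 and 3 and 31531, 10169 and 13903 in knockout 1, 2 and 3, so that replicate 1 of both genotypes was the deepest per cell.

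Saa3 is a serum amyloid A protein made outside the liver, released by fibroblasts and macrophages under cytokines such as IL-1, TNF and IL-6. Cxcl5 belongs to the ELR-bearing CXC chemokines, which attract neutrophils through the receptor Cxcr2. Fibroblasts of wounds, joints and tumours can take on a cytokine-driven state in which NF-kappaB and C/EBP transcription factors switch on chemokines, Il6, acute phase proteins and matrix metalloproteinases, and this state is usually set apart from the contractile myofibroblast and from the resting Pi16-positive fibroblast. Lrrc15 is a membrane protein of activated, matrix-producing fibroblasts, Brinp3 a secreted protein best known from neurons, and Grem1 a secreted antagonist of BMP signals.

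The genes on which the description turns sit on several chromosomes (GRCm38, GENCODE M21). Saa3 lies at chr7:46711998-46715700 on the minus strand. Cxcl5 lies at chr5:90759360-90761624 and Cxcl1 at chr5:90891241-90893115, both on the plus strand, with 129616 bases between them. Ccl2 at chr11:82035571-82037453 and Ccl7 at chr11:82045712-82047525 are separated by 8258 bases. The promoters of Saa3, Cxcl1 and Mmp3 are shown because Saa3 is the gene that ordered the cells and the other 2 had higher levels in the cells with most Saa3 (below). Each sequence runs 5′ to 3′ on the gene's own strand from 250 bases before to 50 bases after the RefSeq start (GRCm38.p6), at chr7:46715627-46715926 on the minus strand for Saa3, chr5:90890995-90891294 on the plus strand for Cxcl1 and chr9:7445572-7445871 on the plus strand for Mmp3. Capitals mark matches on either strand to letters bound by C/EBP (TTGCNNAA), NF-kappaB (GGGNNTTTC) and AP-1 (TGANTCA) factors.
Saa3: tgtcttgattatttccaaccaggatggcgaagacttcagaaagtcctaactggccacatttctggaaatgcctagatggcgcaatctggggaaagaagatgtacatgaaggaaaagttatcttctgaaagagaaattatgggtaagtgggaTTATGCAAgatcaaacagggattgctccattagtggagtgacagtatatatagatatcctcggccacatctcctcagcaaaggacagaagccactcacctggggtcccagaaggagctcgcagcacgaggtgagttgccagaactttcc
Cxcl1: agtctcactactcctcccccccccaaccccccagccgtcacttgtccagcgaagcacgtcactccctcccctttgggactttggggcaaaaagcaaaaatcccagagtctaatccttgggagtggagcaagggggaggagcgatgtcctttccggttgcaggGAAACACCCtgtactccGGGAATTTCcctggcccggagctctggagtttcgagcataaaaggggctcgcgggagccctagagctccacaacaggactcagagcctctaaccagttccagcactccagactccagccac
Mmp3: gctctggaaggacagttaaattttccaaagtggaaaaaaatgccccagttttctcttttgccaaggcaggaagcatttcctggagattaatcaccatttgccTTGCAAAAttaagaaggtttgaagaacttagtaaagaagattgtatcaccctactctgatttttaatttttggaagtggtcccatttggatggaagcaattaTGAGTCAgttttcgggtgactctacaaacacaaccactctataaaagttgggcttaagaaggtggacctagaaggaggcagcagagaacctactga

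The capitals in Saa3 are 1 C/EBP match read on the opposite strand. Cxcl1 held 2 NF-kappaB matches, 1 on each strand. Mmp3 held 1 C/EBP match followed by 1 AP-1 match, a pattern that matches on both strands at once. Of 32851 promoters of the same 300 bases, 4.36% held the NF-kappaB letters, 10.8% the C/EBP letters and 7.81% the AP-1 letters. A match describes the sequence only and says nothing about binding in these cells.

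The inflammatory fibroblasts were very unevenly spread over the libraries. Control 1, 2 and 3 held 5, 7 and 973 of them, and knockout 1, 2 and 3 held 357, 5 and 2. As a share of all filtered barcodes this was 0.234%, 0.109% and 14.2% in the controls and 21.8%, 0.0671% and 0.0327% in the knockouts, with Wilson 95% intervals of 13.4 to 15.1% for control 3 and 19.8 to 23.8% for knockout 1 that cover counting error only. Control 3 and knockout 1 therefore supplied nearly all of the cells, 1 library of each genotype. The mean share was 4.86% ± 8.11 in control and 7.29% ± 12.5 in knockout (SD, n = 3 libraries each), a difference that did not pass the test (two-sided exact permutation test, p = 1, where 3 libraries against 3 cannot go below 0.1). With control 3 left out the knockout mean was higher by 7.12 percentage points, and with knockout 1 left out the difference was -4.81, so that the direction rested on knockout 1. The order of the 2 libraries also depended on depth. With each cell thinned to 3000 UMIs the share was 8.44% in control 3 and 3.07% in knockout 1.

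The fibroblasts that meet the Lrrc15, Brinp3 and Grem1 threshold without regard to Saa3, called the stromal gate here, were present in every library. They numbered 439, 255 and 1255 in control 1, 2 and 3 and 474, 109 and 287 in knockout 1, 2 and 3. Inflammatory fibroblasts made up 77.5% of the gate in control 3 and 75.3% in knockout 1, but 1.14% and 2.75% in control 1 and 2 and 4.59% and 0.697% in knockout 2 and 3. The gate itself was thus filled in all 6 libraries, and the Saa3 and Cxcl5 threshold separated control 3 and knockout 1 from the other 4.

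Saa3 was high in these 2 libraries as a whole and not only in the gated cells. Over all filtered barcodes it stood at 13.0, 36.3 and 4867 CPM (counts per 1000000 UMIs of the cells summed) in control 1, 2 and 3, and at 2553, 2.33 and 4.97 CPM in knockout 1, 2 and 3. Cells of other types held it too. At least 1 Saa3 UMI was found in 73.7% of the endothelial cells (Cdh5 and Pecam1 at 2 UMIs or more) of control 3 and in 76.9% of those of knockout 1, against 1.63%, 2.49%, 0.368% and 1.68% in control 1 and 2 and knockout 2 and 3. The median endothelial cell held 176 Saa3 CPM in control 3 and 104 in knockout 1. Endothelial cells are taken here as a type that should lack Saa3, which was not tested, and their level as a measure of background. Some of them held far more, since their summed level was 1397 and 452 CPM.

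Against that background the 2 libraries differed. The median inflammatory fibroblast of control 3 held 11626 Saa3 CPM, far above its endothelial cells, whereas the median one of knockout 1 held 253. In knockout 1 that was above the 104 of endothelial cells but close to the medians of 284 in macrophages, 203 in neutrophils and 195 in T and NK cells, while the same types held 175, 188 and 266 in control 3. Under 500 CPM of Saa3 and Cxcl5 were found in 59 of 973 cells (6.06%) of control 3 and in 170 of 357 (47.6%) of knockout 1, where the cells were also deeper, with a median of 49306 UMIs against 17622 in control 3. A threshold counted in UMIs is reached at a lower level in a deeper cell. The cells with at least 1000 CPM of Saa3 and Cxcl5 numbered 2, 2 and 867 in control 1, 2 and 3 and 165, 2 and 1 in knockout 1, 2 and 3. These 867 and 165 cells of control 3 and knockout 1, called the Saa3/Cxcl5-high cells, are set beside the full groups below.

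**Figure D1:**
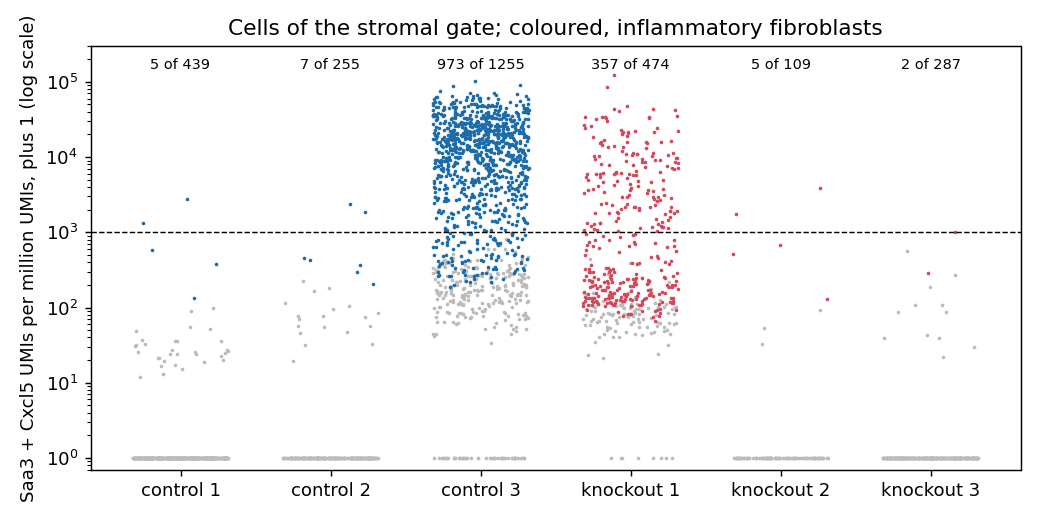
Saa3 and Cxcl5 CPM (plus 1, log scale) in every cell of the stromal gate, by library; coloured points are inflammatory fibroblasts, grey points the other cells of the gate, and the dashed line marks 1000 CPM. In control 3 and knockout 1 the coloured points form a broad range that reaches far above the dashed line, with a dense low group in knockout 1, whereas the other 4 libraries hold 2 to 7 coloured cells each.

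Just inside the threshold, cells with exactly 5 UMIs of Saa3 and Cxcl5 numbered 18 in control 3 and 35 in knockout 1. Just outside it, cells of the gate with 4 UMIs numbered 34 and 36. Both transcripts together were present in 740 of the 973 cells of control 3 and in 268 of the 357 of knockout 1. Scrublet-ranked doublets made up 77 of the 973 and 4 of the 357. No barcode was an inflammatory fibroblast in more than 1 library, and pairs of libraries shared 0 to 15 filtered barcodes.

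The 5 genes of the rule and Ccl7 are given as CPM of the summed cells, in the order control 1, 2, 3 and knockout 1, 2, 3. Saa3 was at 325, 69.9 and 14513 in the controls and at 4378, 37.7 and 0 in the knockouts. Cxcl5 was at 676, 568 and 892 and at 855, 1304 and 494. Cells without Saa3 had to hold at least 5 Cxcl5 UMIs to enter, so the rule sets part of these levels. The median cell held 99.6, 424 and 337 Cxcl5 CPM in control 1, 2 and 3 and 49.4, 678 and 642 in knockout 1, 2 and 3. Saa3 was at 0 UMIs in 2 of 5 cells in control 1, 5 of 7 in control 2, 4 of 5 in knockout 2 and both in knockout 3. Lrrc15 stood at 101, 87.4 and 665 and at 156, 167 and 116, Brinp3 at 54.9, 219 and 371 and at 231, 86.2 and 116, and Grem1 at 0, 0 and 258 and at 150, 113 and 29.1. Control 3 was the highest of the 6 for each of these 3 gate genes. Ccl7, a CC chemokine that attracts monocytes and was not part of the rule, stood at 220, 350 and 791 and at 255, 1175 and 378, and was found in every library.

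The cells carried the matrix genes of fibroblasts. Of the 19 fibroblast and matrix genes listed, none was at 0 in control 3 or knockout 1, and their summed level was 95935 CPM in control 3 and 123023 in knockout 1, led by Col3a1 at 25227 in control 3 and by Col1a1 at 29758 in knockout 1. Pdgfra, the receptor that marks mesenchymal fibroblasts, was at 230 and 301 CPM and was detected in 90.5% and 94.96% of the cells. No background share from another cell type is given for it, and detection also rises with depth. Lymphocyte genes summed to 6.71 and 4.25 CPM, endothelial genes to 32.4 and 29.7, and macrophage and monocyte genes to 364 and 253, led by Lyz2 at 173 and 107. The Ptprc and Cdh5 limits of the rule set part of these levels. Neutrophil genes summed to 522 and 182 CPM and erythroid genes to 415 and 5.34. Osteoblast genes summed to 1044 and 5859 and hypertrophic chondrocyte genes to 5924 and 8236. Chondrocyte genes summed to 1547 CPM in control 3, led by Col11a1 at 394, but to 15942 in knockout 1, led by Col2a1. The cartilage level of knockout 1 was uneven over the cells, with Col2a1 at a median of 1184 CPM and an upper quartile of 1779 beside a summed level of 5599, and the part of free RNA or of mixed barcodes in this was not tested.

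Other cell groups of the same libraries were set beside the inflammatory fibroblasts. The Saa3/Cxcl5-low cells met the same stromal gate and exclusions but held at most 1 UMI of Saa3 and Cxcl5 together, and they numbered 117 in control 3 and 21 in knockout 1. The Pi16/Clec3b fibroblasts held at least 1 Pi16 UMI and at least 3 of Pi16 and Clec3b, with fewer than 3 gate UMIs, and numbered 13 and 24. The Penk/Aspn cells held Penk and Aspn at 5 UMIs or more together, with at least 1 of each, and numbered 159 and 47. The UMIs of each group were summed per library, and edgeR's quasi-likelihood test compared the groups with the library as a block. Only control 3 and knockout 1 had at least 10 cells in both groups, so every test rests on n = 2 libraries, 1 of each genotype. The cells of both groups were chosen by transcripts of the same profiles, so genes that vary with the chosen ones differ partly by the choice. The 3 comparisons share the inflammatory fibroblasts, and their values are given side by side only. Median depth per cell in control 3 and knockout 1 was 11123 and 20417 UMIs for the Saa3/Cxcl5-low cells, 10052 and 29806 for the Pi16/Clec3b fibroblasts and 10141 and 35300 for the Penk/Aspn cells, shallower than the inflammatory fibroblasts in each case.

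At an adjusted p under 0.05 (edgeR, Benjamini-Hochberg over all genes tested), 271 of 14243 genes were higher (1.9%) and 209 lower (1.47%, 480 or 3.37% together) than in the Saa3/Cxcl5-low cells. Against the Pi16/Clec3b fibroblasts 240 of 14081 were higher (1.7%) and 271 lower (1.92%, 511 or 3.63% together). Against the Penk/Aspn cells 320 of 14489 were higher (2.21%) and 312 lower (2.15%, 632 or 4.36% together). The median log2 fold change of all genes was 0.03, 0.09 and 0.03 in the 3 comparisons. A called gene need not differ the same way in both libraries, and 5 of the 480, 45 of the 511 and 0 of the 632 had the opposite sign in 1 of them. With the 5 libraries that held at least 5 cells of each group, 217, 43 and 573 genes were called in the same order of comparisons. Fewer genes were tested there, and the share called of all genes is not given. List counts in this setting therefore describe the setting only and are not read as a result about a list. Of the chemokine, acute phase, complement, NF-kappaB and chondrocyte list genes described below, each counted once, 24 of 65 tested were then called against the Saa3/Cxcl5-low cells, 0 of 52 against the Pi16/Clec3b fibroblasts (18 at an unadjusted p under 0.05) and 29 of 62 against the Penk/Aspn cells, by edgeR. Without control 3 and knockout 1 no fit was made, since the other 4 libraries held 19 inflammatory fibroblasts. Genes used by any gate are left out of the gene lists below.

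The same comparisons were made with the Saa3/Cxcl5-high cells alone, a setting chosen after seeing the data. Against the unchanged Saa3/Cxcl5-low cells 198 of 12664 genes were higher (1.56%) and 226 lower (1.78%). The 10 genes highest and the 10 lowest by fold change in all inflammatory fibroblasts were also called by edgeR for the Saa3/Cxcl5-high cells in this setting, with Mmp3 at 4.87 ± 0.70 (edgeR adjusted p = 0.00544) and Cxcl10 at 3.09 ± 0.43 (edgeR adjusted p = 0.00492). These cells are part of the inflammatory fibroblasts and were set beside the same group, so this outcome was largely fixed in advance. It is no separate support, and the list counts given below for the Saa3/Cxcl5-high cells share this limit. Fewer genes were called when the other group was changed too, to every cell of the gate with under 500 CPM of Saa3 and Cxcl5. These under-500 cells numbered 334 in control 3 and 287 in knockout 1, and 59 and 170 of them were themselves inflammatory fibroblasts. The Saa3/Cxcl5-high cells then had 38 of 14466 genes higher (0.263%) and 59 lower (0.408%). Of the 10 highest genes, Olfr810, Il6, Ccl7, Nos2 and Il1rl1 kept an adjusted p under 0.05 by edgeR there and Mmp3, Ctla2a, Ccl2, Prg4 and Cxcl10 did not. Mmp3 kept its size, at 4.43 ± 0.67 (edgeR adjusted p = 0.0962), and Cxcl10 did not, at 0.51 ± 0.13 (edgeR adjusted p = 0.184). Against the Penk/Aspn cells the Saa3/Cxcl5-high cells had 690 genes higher (5.34%) and 748 lower (5.79%) of 12926, and against the Pi16/Clec3b fibroblasts 340 higher (2.71%) and 374 lower (2.98%) of 12532.

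**Figure D2:**
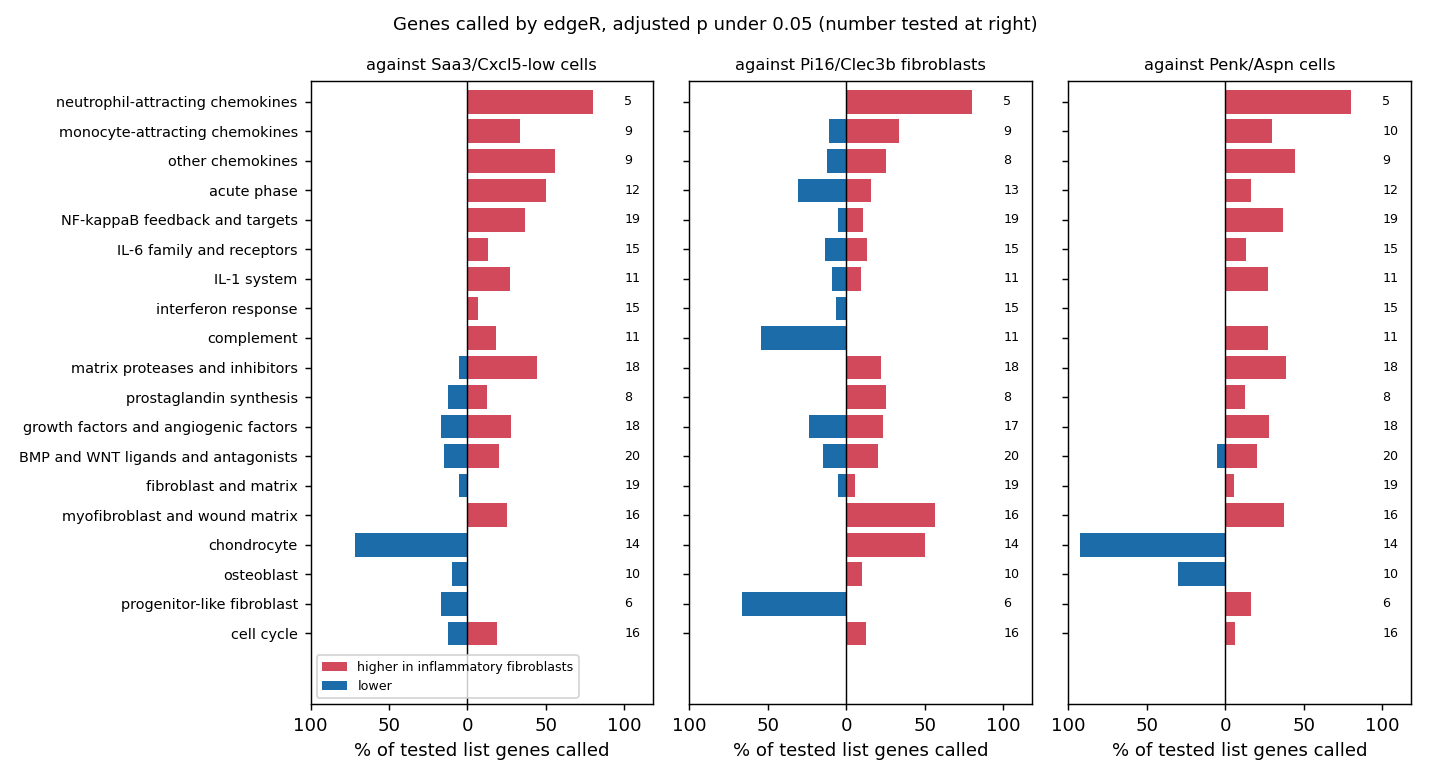
Share of the tested genes of 19 lists that edgeR called higher (red, right) or lower (blue, left) in the inflammatory fibroblasts, in percent, against each of 3 cell groups; the number tested stands at the right of each bar. Neutrophil-attracting chemokines, a list that also holds the colony-stimulating factor Csf3, were called higher for 4 of 5 genes in all 3 panels. Chondrocyte genes were called lower for 10 of 14 and 13 of 14 in the left and right panels.

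Chemokines that attract neutrophils, listed together with the colony-stimulating factor Csf3, which is not a chemokine, were higher in the inflammatory fibroblasts. Of 5 tested list genes, Csf3, Cxcl1, Cxcl2 and Cxcl3 were called higher against each of the 3 groups and none lower, with a median log2 fold change of 3.16 against the Saa3/Cxcl5-low cells, or 3.09 with genes absent from those cells set at their lower bound. With libraries of at least 5 cells 1 of 3 was called against the Saa3/Cxcl5-low cells, 0 of 2 against the Pi16/Clec3b fibroblasts (2 at an unadjusted p under 0.05) and 1 of 3 against the Penk/Aspn cells, by edgeR. Cxcl1, a ligand of Cxcr2 like Cxcl5, stood at 954 CPM in control 3 and 460 in knockout 1, and at 59.1, 533, 32.3 and 145 in control 1 and 2 and knockout 2 and 3. The Saa3/Cxcl5-low cells held 124 and 48.3 in control 3 and knockout 1, a log2 difference of 3.16 ± 0.27 (SE, n = 2 libraries, edgeR adjusted p = 3.2e-08). Against the Penk/Aspn cells, at 55.4 and 65.8, it was 3.46 ± 0.41 (edgeR adjusted p = 0.011). Both libraries showed the difference from these 2 groups, whereas the Pi16/Clec3b fibroblasts of knockout 1 held 414 CPM, close to the inflammatory fibroblasts of the same library, and the log2 difference was 1.82 ± 0.43 (edgeR adjusted p = 0.00107). Cxcl2 stood at 313 and 123 CPM, with 20.3 and 92.4 in the Saa3/Cxcl5-low cells (2.23 ± 0.46, edgeR adjusted p = 0.00461), a wide gap in control 3 and a narrow one in knockout 1. Csf3, the granulocyte colony-stimulating factor, was low at 6.87 and 21.9 CPM but had no UMI in the Saa3/Cxcl5-low cells, so that it was at least 8.54-fold higher with a floor of 3 counts over that group. At least 1 Cxcl1 UMI was found in 87.5% of the inflammatory fibroblasts of control 3 and 89.4% of those of knockout 1. In the shallower endothelial cells (median 6359 and 17563.5 UMIs) it was 29.5% and 60.6%, and the median level was 578 and 150 CPM in the inflammatory fibroblasts and 0 and 42.5 in the endothelial cells.

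Monocyte-attracting chemokines followed in part. Ccl2, Ccl5 and Ccl7 were called higher among 9 tested genes against the Saa3/Cxcl5-low cells, and none lower. With the Saa3/Cxcl5-high cells it was 3 again, and 1 against the under-500 cells. Ccl7 stood at 57.3 and 21.0 CPM in the Saa3/Cxcl5-low cells of control 3 and knockout 1 against 791 and 255 in the inflammatory fibroblasts, a log2 difference of 3.81 ± 0.29 (edgeR adjusted p = 4.77e-09). Its neighbour Ccl2, the main ligand of Ccr2 on monocytes, was at 546 and 171 against 46.7 and 8.40 (3.83 ± 0.30, edgeR adjusted p = 6.77e-09). Ccl2 was not called against the Penk/Aspn cells, which held 18.6 in control 3 but 193 in knockout 1. The 193 came from few of these 47 cells of knockout 1, whose median was 0 and 90th percentile 39.1 CPM, against a median of 27.8 and a 90th percentile of 489 in the inflammatory fibroblasts there. Against the Pi16/Clec3b fibroblasts the same 3 chemokines were called higher. For Ccl2 and Ccl7 this was a difference of control 3 with its 13 Pi16/Clec3b cells, since those of knockout 1 held 170.2 and 269 CPM beside 171 and 255. The eosinophil chemokine Ccl11 was called lower, at 2.45 and 1.38 against 0 and 121 CPM, a direction seen in knockout 1 and not in control 3.

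Of 9 other chemokines tested against the Saa3/Cxcl5-low cells, Ccl20, Cxcl9, Cxcl10, Cxcl14 and Cxcl16 were called higher and none lower, and likewise with the Saa3/Cxcl5-high cells, but 1 of them was called against the under-500 cells. Cxcl10, an interferon-inducible ligand of Cxcr3, was at 91.5 CPM in control 3 and 16.5 in knockout 1 against 9.80 and 0 (3.45 ± 0.38, edgeR adjusted p = 1.77e-06). Ccl20, the ligand of Ccr6, was at 18.5 and 75.2 against 0.753 and 2.10 (4.98 ± 0.52, edgeR adjusted p = 8.22e-07). The 2 genes were thus unequal in opposite ways, Cxcl10 higher in control 3 and Ccl20 in knockout 1. Of 15 interferon response genes, Ifit1 was called higher against the Saa3/Cxcl5-low cells, Bst2 lower against the Pi16/Clec3b fibroblasts and none against the Penk/Aspn cells. With the Saa3/Cxcl5-high cells 0 of 15 were called against the Saa3/Cxcl5-low cells. With libraries of at least 5 cells 3 of 15 were higher there and 4 of 14 against the Penk/Aspn cells. In that setting 0 of 11 were called against the Pi16/Clec3b fibroblasts. Ordered by Saa3 (below), the lowest part of control 3 held Ifit1 at 79.9 CPM and the highest at 1.06. The same parts of knockout 1 held 28.3 and 1.52. Cxcl12, the chemokine of marrow stromal cells, was called lower against the Pi16/Clec3b fibroblasts, at 149 and 514 against 421 and 1283 CPM (-1.30 ± 0.37, edgeR adjusted p = 0.0164).

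Cytokines and their receptors came next. Il6 stood at 74.4 CPM in control 3 and 113 in knockout 1, and at 21.1, 140, 16.2 and 29.1 in the few cells of control 1 and 2 and knockout 2 and 3. It was higher than in the Saa3/Cxcl5-low cells, which held 6.03 and 4.20 (log2 difference 4.05 ± 0.34, edgeR adjusted p = 2.44e-08), and than in the Penk/Aspn cells, with 4.26 and 30.8 (2.64 ± 0.47, edgeR adjusted p = 0.0322). The Pi16/Clec3b fibroblasts had no Il6 UMI in control 3 and 134 CPM in knockout 1, and Il6 was not called there. Of the 15 genes of the IL-6 family, Il6 and Il11 were called higher against the Saa3/Cxcl5-low cells (Il6 alone with the Saa3/Cxcl5-high cells), and Il11 and the feedback inhibitor Socs3 against the Pi16/Clec3b fibroblasts, where the receptors Il6st and Il11ra1 were lower. Il1rl1, the receptor of IL-33, was at 55.5 and 99.3 CPM against 8.29 and 6.30 in the Saa3/Cxcl5-low cells (3.24 ± 0.33, edgeR adjusted p = 5.93e-07) and was called higher in all 3 comparisons. Its ligand Il33 was called lower against the Pi16/Clec3b fibroblasts, at 1.85 and 31.0 against 25.9 and 399. With libraries of at least 5 cells 0 of 9 IL-6 family genes were called against the Pi16/Clec3b fibroblasts. Of the IL-1 system list, which holds Il1rl1 and Il33, 0 of 4 were called there. In that setting the counts were 1 of 11 and 2 of 10 against the Saa3/Cxcl5-low cells, and 2 of 11 and 4 of 11 against the Penk/Aspn cells. Tnfsf11, the osteoclast factor RANKL, was at 146 and 155 CPM against 26.4 and 10.5 in the Saa3/Cxcl5-low cells (2.99 ± 0.30, edgeR adjusted p = 3.72e-07) and was named after its values were seen. Its decoy receptor Tnfrsf11b, named likewise, was called lower against the Penk/Aspn cells, at 11.7 and 19.8 against 76.1 and 44.4 (-1.95 ± 0.32, edgeR adjusted p = 0.0249).

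Acute phase genes other than Saa3 separated the comparisons. Against the Saa3/Cxcl5-low cells 6 of 12 were called higher and none lower, among them Saa1, C3, Serpina3g and Hp. With the Saa3/Cxcl5-high cells it was 4 of 11, Saa1, C3 and Hp among them, and against the under-500 cells 2. Haptoglobin (Hp), which binds free haemoglobin, stood at 2196 CPM in control 3 and 985 in knockout 1 against 543 and 120 (2.58 ± 0.30, edgeR adjusted p = 2.66e-06). The complement component C3 was at 286 and 276 against 38.4 and 54.6 (2.73 ± 0.26, edgeR adjusted p = 2.22e-07). The summed levels of both libraries were alike for C3, but the median cell held 222 CPM in control 3 and 52.7 in knockout 1. The few cells of control 1 and 2 held more, 1546 and 1644 CPM summed. Against the Penk/Aspn cells only Saa1 and Serpina3g of 12 were called higher (7 with the Saa3/Cxcl5-high cells), and Hp stood there at 949 and 1047 CPM. The 1047 of knockout 1 came from few cells, with a median of 64.1 and a 90th percentile of 509 CPM, against 218 and 2534 in the inflammatory fibroblasts of that library. Against the Pi16/Clec3b fibroblasts 2 of 13 were higher and 4 lower, the lower ones being Serpina3n, Steap4, Lcn2 and Ptx3. Serpina3n, a serine protease inhibitor, was at 24.0 and 830 against 408 and 2475 (-2.67 ± 0.43, edgeR adjusted p = 5.9e-08). Complement genes were lower against the Pi16/Clec3b fibroblasts for 6 of 11, and none was higher. Against the other groups they were higher and none lower, for 3 of 11 (Penk/Aspn) and 2 of 11 (Saa3/Cxcl5-low). With the Saa3/Cxcl5-high cells 6 were lower against the Pi16/Clec3b fibroblasts, 6 higher against the Penk/Aspn cells and 2 against the Saa3/Cxcl5-low cells. With libraries of at least 5 cells the counts were 0 of 9, 4 of 11 higher and 5 of 11 higher in that order. Lcn2 is also a neutrophil gene, and the 13 Pi16/Clec3b fibroblasts of control 3 held S100a8 at 17683 CPM against 53.4 in the 24 of knockout 1. Neutrophil genes were called lower in the inflammatory fibroblasts for 5 of 7 in that comparison, and the part of neutrophil RNA in it was not tested.

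Targets and feedback inhibitors of NF-kappaB were called higher for 7 of 19 genes against the Saa3/Cxcl5-low cells and for 7 of 19 against the Penk/Aspn cells, and none lower in either. With the Saa3/Cxcl5-high cells the counts were 6 and 12 of 19, and against the under-500 cells 2. With 5 libraries of at least 5 cells they were 3 and 6 of 18. Sod2, the mitochondrial superoxide dismutase, stood at 401 and 356 CPM against 88.9 and 71.4 in the Saa3/Cxcl5-low cells (2.32 ± 0.25, edgeR adjusted p = 1.26e-06). Nfkbia, the inhibitor that holds NF-kappaB in the cytoplasm, was at 801 and 413 against 201 and 130 (1.92 ± 0.25, edgeR adjusted p = 2.06e-05). Cebpb, a C/EBP factor induced by IL-1 and IL-6, was at 362 and 284 against 115 and 94.5 (1.71 ± 0.24, edgeR adjusted p = 6.17e-05) and against 75.1 and 115 in the Penk/Aspn cells (1.79 ± 0.32, edgeR adjusted p = 0.0323). All 3 were higher in each library. Against the Pi16/Clec3b fibroblasts 2 of 19 were higher and 1 lower. Nos2, the inducible nitric oxide synthase, was at 39.8 and 71.4 CPM and had no UMI in the Pi16/Clec3b fibroblasts, at least 15.9-fold higher with a floor of 3 counts over that group.

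Matrix proteases formed a further group. Against the Saa3/Cxcl5-low cells 8 of 18 protease and inhibitor genes were called higher, among them Mmp3, Mmp12, Timp1 and Adamts4, and Timp3 was called lower. With the Saa3/Cxcl5-high cells 7 of 18 were called higher and against the under-500 cells 2, and with 5 libraries 5 of 15. Mmp3, stromelysin-1, stood at 228, 131 and 1327 CPM in control 1, 2 and 3 and at 1268, 0 and 0 in knockout 1, 2 and 3. In control 3 and knockout 1 the Saa3/Cxcl5-low cells held 139 and 21.0 (log2 difference 4.32 ± 0.40, edgeR adjusted p = 1.26e-07), the Pi16/Clec3b fibroblasts 129 and 291 (2.78 ± 0.42, edgeR adjusted p = 3.9e-09) and the Penk/Aspn cells 96.9 and 117 (3.61 ± 0.30, edgeR adjusted p = 0.00656). The summed level of Mmp3 was thus close to equal in the inflammatory fibroblasts of the 2 libraries and higher than in each of the 3 other groups. It was spread differently over the cells, with a median of 317 CPM in control 3 and 38.9 in knockout 1, where the upper quartile was 115. Timp1, an inhibitor of metalloproteinases, was more abundant still, at 3892 and 1869 CPM against 1447 and 401 (1.90 ± 0.30, edgeR adjusted p = 0.00023). Mmp13, the interstitial collagenase of hypertrophic cartilage and bone, was at 1979 and 2787 against 1127 and 903 (1.30 ± 0.29, edgeR adjusted p = 0.00803) and was not called against the Penk/Aspn cells, nor against the Saa3/Cxcl5-low cells when the Saa3/Cxcl5-high cells alone were used. Prg4, lubricin of the joint surface, stood at 958 and 712 CPM against 105 and 48.3 in the Saa3/Cxcl5-low cells (3.57 ± 0.29, edgeR adjusted p = 1.11e-08), and Ptges, which makes prostaglandin E2, at 66.2 and 79.9 against 24.9 and 21.0 (1.69 ± 0.27, edgeR adjusted p = 0.000235). Ptgs2, which acts before Ptges, was at 220 and 244 against 222 and 300 and was not called.

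Growth factors were called in both directions. Hgf, Ereg, Fgf7, Angptl4 and Hbegf were called higher and Igf1, Tgfb3 and Ptn lower among 18 tested against the Saa3/Cxcl5-low cells. With the Saa3/Cxcl5-high cells the same 5 were called higher and Tgfb3 and Ptn lower, but Igf1 was not called. Against the under-500 cells 1 was called higher. Fgf7, an epithelial growth factor of fibroblasts, stood at 216 and 134 CPM against 62.5 and 50.4 (1.72 ± 0.25, edgeR adjusted p = 6.96e-05). Igf1 was at 91.6 in control 3 and 948 in knockout 1 against 997 and 1547 (-1.99 ± 0.42, edgeR adjusted p = 0.00493). The Igf1 values of the 2 groups lay further apart in control 3 than in knockout 1. Among the BMP and WNT genes called higher of 20 tested were Wnt5a, the WNT antagonist Sfrp1 and the activin antagonist Fstl3, and Bmp6, Chrd and Wif1 were called lower. Wnt5a stood at 215 and 147 CPM against 64.8 and 50.4 (1.74 ± 0.24, edgeR adjusted p = 5.03e-05) and was called higher in all 3 comparisons. Inhba, a subunit of activin A, was the most abundant gene of that list in control 3, at 640 CPM, stood at 500.2 in knockout 1 and was called only against the Pi16/Clec3b fibroblasts, which held 175 and 35.2 (2.96 ± 0.40, edgeR adjusted p = 3.36e-11). With libraries of at least 5 cells 0 of 9 BMP and WNT genes were called against the Pi16/Clec3b fibroblasts. In that setting 3 of 17 were called against the Penk/Aspn cells and 2 of 17 against the Saa3/Cxcl5-low cells.

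**Figure D3:**
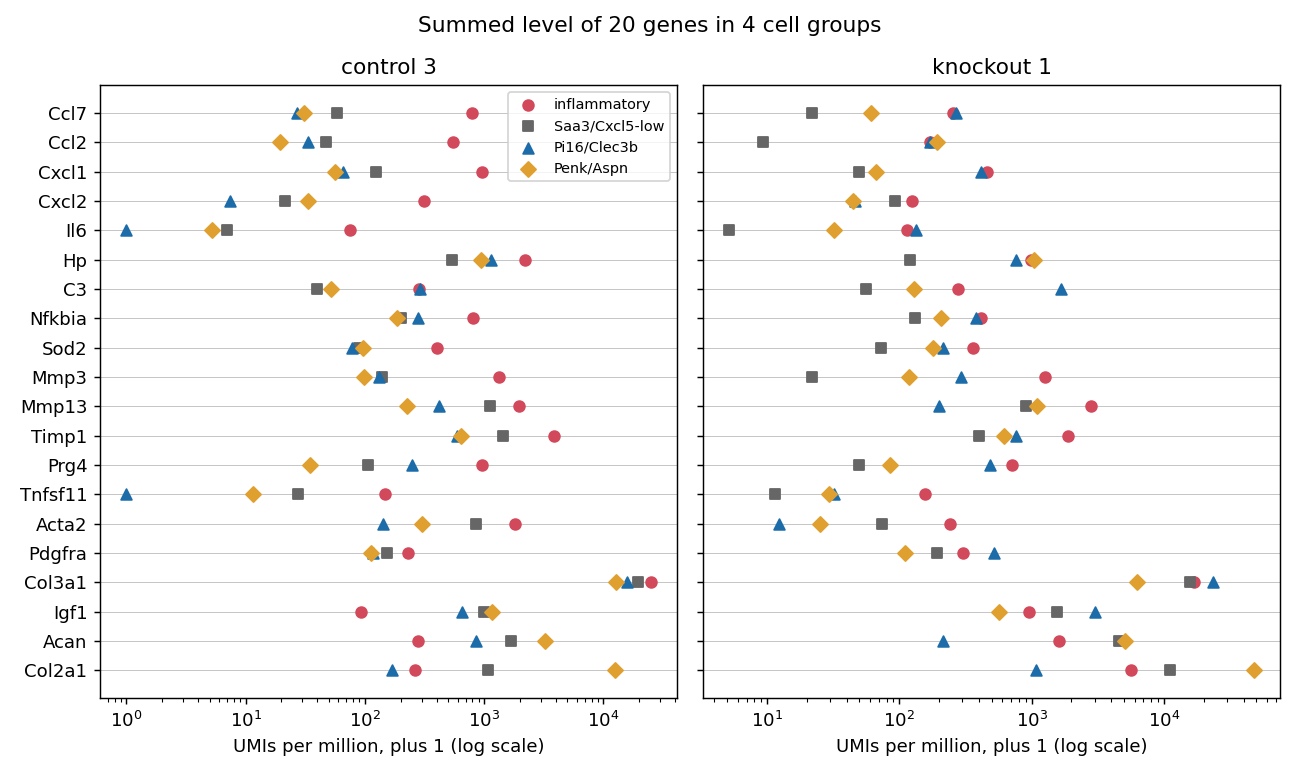
Summed level (CPM plus 1, log scale) of 20 genes in the inflammatory fibroblasts and 3 other cell groups of control 3 (left) and knockout 1 (right). Ccl7, Cxcl1, Mmp3 and Tnfsf11 lie furthest right in the inflammatory fibroblasts of control 3, whereas in knockout 1 the Pi16/Clec3b fibroblasts lie close to them for Ccl7, Ccl2, Cxcl1 and Il6.

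Among contractile genes, Acta2 was high in control 3 and lower in knockout 1, yet above the 3 other groups in each. Acta2, smooth muscle actin and the marker of myofibroblasts, stood at 42.2, 105 and 1819 CPM in control 1, 2 and 3 and at 242, 21.6 and 1686 in knockout 1, 2 and 3, the last from 2 cells. The Pi16/Clec3b fibroblasts held 142 and 11.3 in control 3 and knockout 1 (log2 difference 4.12 ± 0.45, edgeR adjusted p = 1.47e-17), the Penk/Aspn cells 304 and 24.3 (2.93 ± 0.29, edgeR adjusted p = 0.00803) and the Saa3/Cxcl5-low cells 850 and 73.5 (1.45 ± 0.27, edgeR adjusted p = 0.00171). Acta2 was detected in 91.9% of the cells of control 3 and in 58.3% of those of knockout 1, which were deeper. No background share from another cell type is given for Acta2. Of 16 myofibroblast and wound matrix genes, 9 were called higher against the Pi16/Clec3b fibroblasts, 6 against the Penk/Aspn cells and 4 against the Saa3/Cxcl5-low cells, and none lower. The last 4 were Acta2, Adam12, Lox and Timp1, also with the Saa3/Cxcl5-high cells, whereas the contractile genes Tagln, Myl9, Tpm1 and Tpm2 were not called there. Against the under-500 cells 0 of 16 were called by edgeR. With libraries of at least 5 cells the counts were 2, 4 and 3 of 16 in the order Pi16/Clec3b, Penk/Aspn and Saa3/Cxcl5-low. Postn, the most abundant of them, was at 4548 and 3948 CPM and was not called in any of the 3. Chemokine transcripts and Acta2 were thus present in the same summed cells.

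Few collagens and other matrix genes of fibroblasts separated the full groups. Of 19, only Col14a1 was called against the Saa3/Cxcl5-low cells, lower at 47.1 and 209 CPM against 142 and 319 (-1.02 ± 0.25, edgeR adjusted p = 0.017). Col12a1 was called higher and Col14a1 lower against the Pi16/Clec3b fibroblasts, and Pdgfra higher against the Penk/Aspn cells. With the Saa3/Cxcl5-high cells 0 of 19 were called against the Saa3/Cxcl5-low cells and 0 against the under-500 cells. Against the Penk/Aspn cells 5 of 19 were then higher, where 5.34% of all genes were. With libraries of at least 5 cells 1 of 19 was higher and 0 lower against the Saa3/Cxcl5-low cells. In that setting 0 of 19 were called against the Pi16/Clec3b fibroblasts and 5 of 19 were higher against the Penk/Aspn cells. Col3a1 stood at 25227 and 16926 against 19594 and 15758 in the Saa3/Cxcl5-low cells and was not called. Genes of progenitor-like fibroblasts were lower against the Pi16/Clec3b fibroblasts for 4 of 6, namely Cd34, Dpt, Cd55 and Ly6a, and for 1 of 6 with libraries of at least 5 cells. Cd34 was at 12.5 and 16.3 CPM against 123 and 287 (-3.67 ± 0.38, edgeR adjusted p = 4.14e-19). The few cells of control 1 and knockout 2 went the other way, with Cd34 at 456 and 216 and Ly6a at 1275 and 3169, against 409 and 258 for Ly6a in control 3 and knockout 1. The 7 cells of control 2 and 2 of knockout 3 held Cd34 at 96.2 and 0 and Ly6a at 551 and 407. Of the 10 genes furthest below the Pi16/Clec3b fibroblasts, Gdf10, a BMP family ligand, was at 0.164 and 4.82 against 207 and 193 (-6.79 ± 0.44, edgeR adjusted p = 4.08e-49), and elastin (Eln) at 4.31 and 16.7 against 136 and 491 (-4.82 ± 0.39, edgeR adjusted p = 3.14e-31).

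Cartilage genes were lower than in the Penk/Aspn and Saa3/Cxcl5-low cells. Against the Penk/Aspn cells 13 of 14 chondrocyte genes were called lower, and against the Saa3/Cxcl5-low cells 10 of 14. Col2a1, the main collagen of cartilage, stood at 262 CPM in control 3 and 5599 in knockout 1 against 12559 and 48140 in the Penk/Aspn cells (-4.34 ± 0.70, edgeR adjusted p = 0.0229) and against 1072 and 11122 in the Saa3/Cxcl5-low cells (-1.42 ± 0.33, edgeR adjusted p = 0.0104). Every group held more Col2a1 in knockout 1 than in control 3. Ucma, a matrix protein of early cartilage, was at 9.33 and 22.9 against 604 and 477 in the Penk/Aspn cells (-5.18 ± 0.41, edgeR adjusted p = 0.00656). Acan, the main proteoglycan, was at 281 and 1618 against 1686 and 4571 in the Saa3/Cxcl5-low cells (-1.95 ± 0.31, edgeR adjusted p = 0.000238). Against the Pi16/Clec3b fibroblasts 7 of 14 were called higher, but 0 of 14 when the inflammatory fibroblasts were limited to the Saa3/Cxcl5-high cells. With libraries of at least 5 cells 0 of 13 were called there. The list summed to 1547 and 15942 CPM in control 3 and knockout 1 against 4409 and 3442. Its sum was thus higher in knockout 1 and lower in control 3. Osteoblast genes were lower for 3 of 10 against the Penk/Aspn cells (Phex, Alpl and Sp7). Erythroid genes were lower for 4 of 4 against the Saa3/Cxcl5-low cells, with Hbb-bs at 280 and 2.99 against 1621 and 2.10 CPM, a difference carried by control 3.

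Some genes outside the lists stood out by size. Olfr810, annotated as an odorant receptor, was the first by fold change against the Saa3/Cxcl5-low cells, at 99.1 and 44.4 CPM against 3.01 and 0 (5.36 ± 0.44, edgeR adjusted p = 1.31e-08), and it had no UMI in the Pi16/Clec3b fibroblasts, at least 20.9-fold higher there. Ptprn, a protein of secretory granules in neurons and endocrine cells, was at 84.1 and 28.4 against 2.13 and 0.593 in the Penk/Aspn cells (5.42 ± 0.33, edgeR adjusted p = 0.0038). Ctla2a, a cysteine protease inhibitor, was at 117 and 75.1 against 3.77 and 10.5 in the Saa3/Cxcl5-low cells (4.21 ± 0.38, edgeR adjusted p = 7.67e-08), but was not called against the Pi16/Clec3b fibroblasts, which held 175 and 219. Igfbp5, an IGF-binding protein, was lower than in the Saa3/Cxcl5-low cells, at 68.0 and 616 against 686 and 1529 (-2.23 ± 0.35, edgeR adjusted p = 0.000202), and so was the iron exporter Slc40a1, at 6.38 and 49.8 against 96.4 and 172 (-2.74 ± 0.32, edgeR adjusted p = 3.9e-06). Piezo1 was not called in any comparison. It stood at 54.9, 17.5 and 67.7 CPM in control 1, 2 and 3 and at 84.2, 59.3 and 29.1 in knockout 1, 2 and 3. Reads at the 3′ end of the transcript need not cover the deleted part, so that these levels do not check the deletion. Apoe was at 156 and 137 CPM in control 3 and knockout 1 and was not called in any comparison.

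Within the inflammatory fibroblasts the level of Saa3 itself varied widely. The cells of control 3 and knockout 1 were each ordered by Saa3 CPM and divided into 3 parts of near equal size, whose median Saa3 was 1446, 11627 and 30095 CPM in control 3 and 112, 253 and 6724 in knockout 1. This is a description without a test, because the cells were ordered by a gene of the same profiles. The median endothelial cell of knockout 1 held 104 CPM, so the lower 2 parts of that library lie closer to it than to the highest part. Median depth was 19905, 17040 and 16105 UMIs in the parts of control 3 and 52690, 42763 and 49110 in those of knockout 1, lowest in the highest part of control 3 and in the middle part of knockout 1.

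Some protease, acute phase and chemokine transcripts went with Saa3 in both libraries and others did not, and the genes given were chosen after their values were seen. Mmp3 was at 808, 1200 and 2067 CPM from the lowest to the highest part in control 3, and at 81.4, 412 and 3276 in knockout 1. Hp went from 871 over 2237 to 3725 and from 228 over 519 to 2188. Ctla2a went from 22.9 over 144 to 201 and from 8.76 over 93.1 to 128. These 3 genes and C3, at 165, 285 and 429 and at 102, 349 and 388, were higher in each further part of both libraries. The chemokine Cxcl1 was at 812, 953 and 1112 and at 212, 449 and 722, also higher in each further part of both. Other members of the same lists went down with Saa3 in control 3 and up in knockout 1. Timp1 was at 4587, 3684 and 3195 and at 1152, 1241 and 3129, Serpina3n at 40.1, 17.3 and 11.1 and at 317, 854 and 1333, and Ptx3 at 101, 78.4 and 60.2 and at 184, 408 and 630. Ccl2 was flat in control 3, at 575, 472 and 579, and higher with Saa3 in knockout 1, at 94.2, 183 and 235. Ccl7 was at 690, 704 and 991 and at 102, 287 and 383. Prg4 was opposite between the libraries, at 1313, 852 and 619 in control 3 and at 241, 358 and 1512 in knockout 1. Ccnd1, which drives entry into the cell cycle, went down from 161 to 43.1 and from 106 to 29.6 between the lowest and the highest part, and Igfbp5 from 115 to 39.6 and from 1205 to 131. Col2a1 went down from 385 to 144 in control 3 and from 8626 over 6041 to 1601 in knockout 1. The bone sialoprotein Ibsp was at 721, 853 and 1068 in control 3 and at 8811, 3741 and 2139 in knockout 1. The lowest part of knockout 1 was thus rich in cartilage and bone transcripts.

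**Figure D4:**
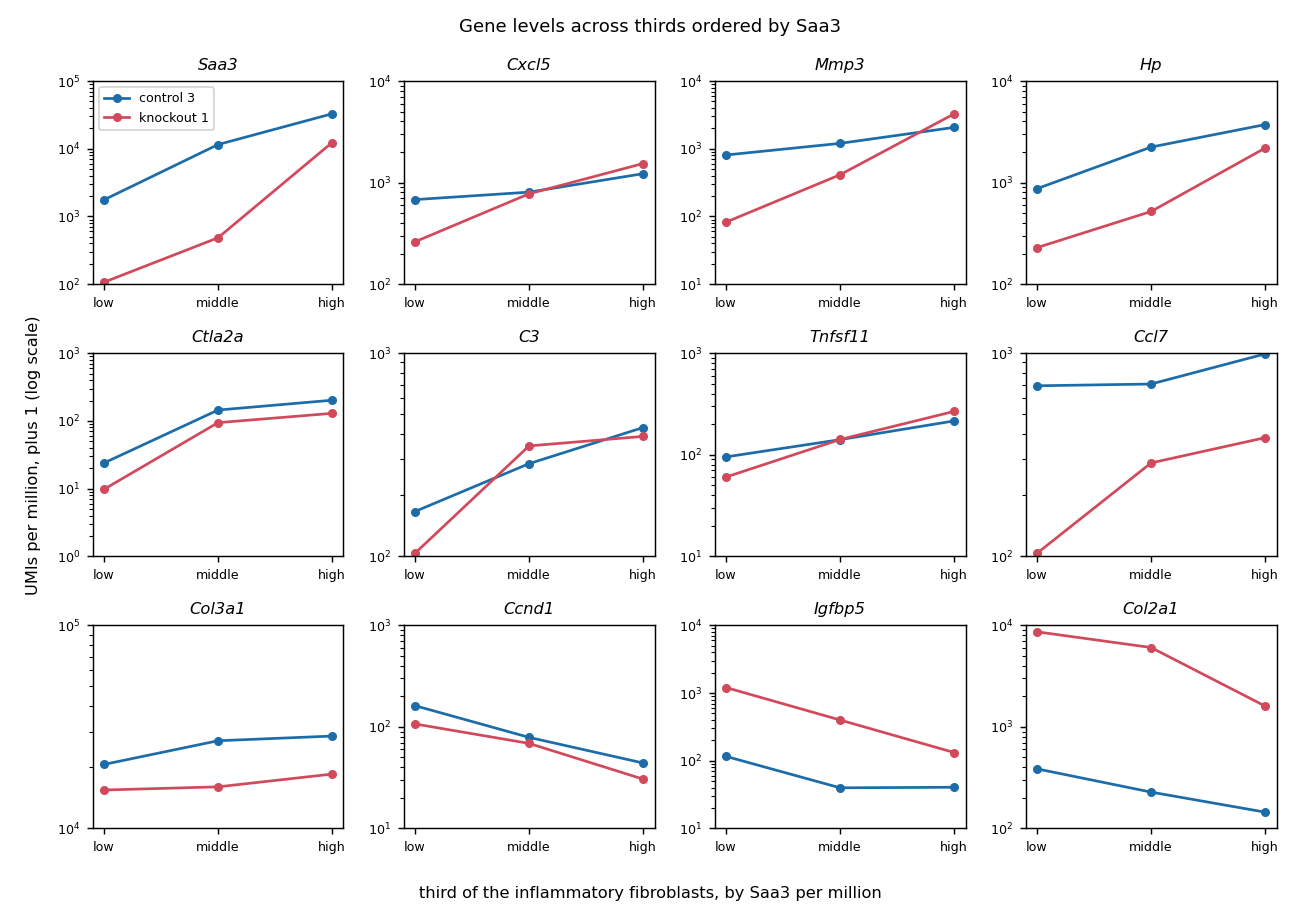
Level of 12 genes (CPM plus 1, log scale) in the lowest, middle and highest of 3 parts of the inflammatory fibroblasts ordered by Saa3, in control 3 (blue) and knockout 1 (red). Mmp3, Hp and Ctla2a are higher in each further part of both libraries, whereas Ccnd1 and Col2a1 are lower.

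Cycling was compared at equal depth, with each cell thinned to 3000 UMIs and counted when it held at least 2 UMIs of 9 mitosis genes. This share was 15.6% (Wilson 95% interval 13.5 to 18.0%) of the inflammatory fibroblasts of control 3 and 11.2% (8.34 to 14.9%) of those of knockout 1, or 34.02% and 46.5% without thinning. The Saa3/Cxcl5-low cells gave 11.97% and 14.3% and the Penk/Aspn cells 11.3% and 2.13%, all from 21 to 159 cells. The intervals of the inflammatory fibroblasts and the Saa3/Cxcl5-low cells overlapped in both libraries, but they cover counting error only. Of 16 cell cycle genes tested against the Saa3/Cxcl5-low cells, Mcm3, Mcm5 and Tyms were called higher and Cenpf and Mki67 lower by edgeR. Of all genes 1.9% were higher there and 1.47% lower. With the Saa3/Cxcl5-high cells Cenpf alone was called, lower. Between the lowest and highest Saa3 part, Mki67 went from 73.1 to 22.7 CPM in control 3 and 95.1 to 107 in knockout 1.

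The genotype comparison inside the inflammatory fibroblasts had little to rest on. With the 5 libraries that held at least 5 cells (control 1, 2 and 3 and knockout 1 and 2), 0 of 4497 genes were called by edgeR (0%) and 25 had an unadjusted p under 0.05, and DESeq2 also called 0. Of these libraries 3 had 5 to 7 cells each. Without a filter on low counts 166 genes were called, and 37 with ranked doublets removed, settings in which more genes were tested and whose shares are not given. Knockout 1 beside control 3 is given as 2 libraries with no replicate, where library, depth and genotype cannot be told apart. Of 3732 genes at 50 CPM or more in either, 328 (8.79%) were at least 2 times higher in knockout 1 and 222 (5.95%) at least 2 times lower, with a median log2 ratio of 0.14.

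The genes furthest on the side of control 3 were Plac9a, at 362 CPM in control 3 and 0.115 in knockout 1, the haemoglobin gene Hbb-bs, at 280 and 2.99, and Galnt2, at 220 and 3.22. Of contractile genes, Acta2 was at 1819 CPM in control 3 and 242 in knockout 1, the actin-binding Tagln at 691 and 132, and the smooth muscle actin Actg2 at 186 and 30.2. Scx, a transcription factor of tendon cells, was at 206 and 39.8, whereas Tnmd, another tendon gene, was at 12.4 and 247, and the tendon list summed to 1225 and 2020. The interferon genes Isg15 and Cxcl10 were at 141 and 15.2 and at 91.5 and 16.5. Their level in control 3 came mostly from the cells with least Saa3, with Isg15 at 360 in the lowest part and 6.51 in the highest, and Cxcl10 at 188 and 39.9. On the side of knockout 1, Col2a1 was at 262 in control 3 and 5599 in knockout 1, Acan at 281 and 1618, the hypertrophic collagen Col10a1 at 13.0 and 482, and the bone sialoprotein Ibsp at 874 and 5154. Igf1 was at 91.6 and 948, the metallothionein Mt2 at 171 and 1599, and Serpina3n at 24.0 and 830. Among the Saa3/Cxcl5-high cells 317 of 3733 genes (8.49%) were at least 2 times higher in knockout 1 and 203 (5.44%) at least 2 times lower. In these cells Acta2 remained apart, at 1881 and 291, and so did Serpina3n, at 17.8 and 1303, Col2a1, at 234 and 1580, and Col10a1, at 13.0 and 381, whereas Acan was at 263 and 425.

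**Figure D5:**
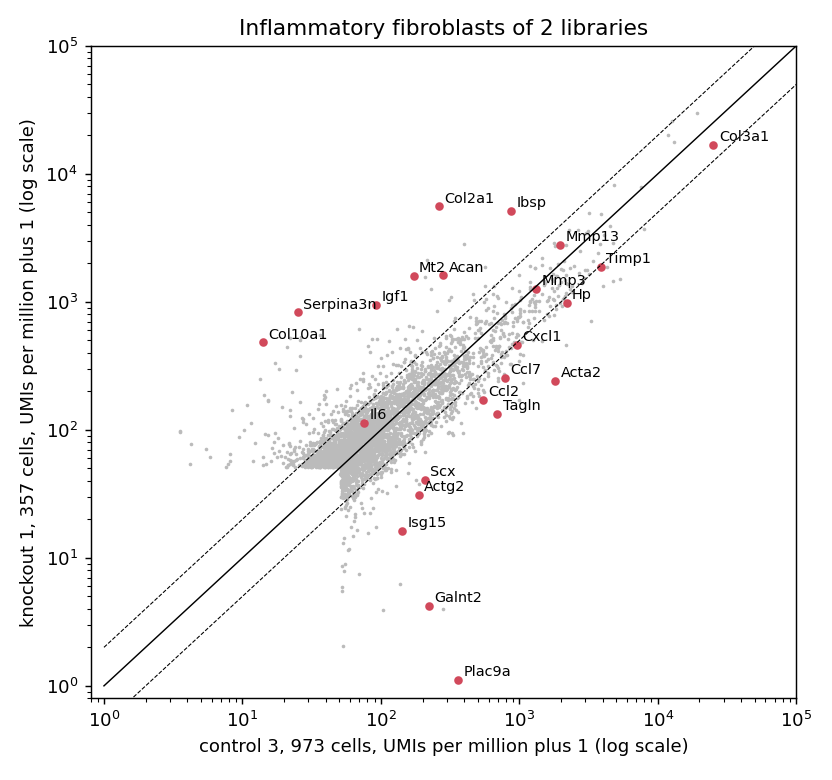
Summed level of each gene (CPM plus 1, log scales) in the inflammatory fibroblasts of control 3 (horizontal) and knockout 1 (vertical), for genes at 50 CPM or more in either; the solid line marks equal levels and the dashed lines a ratio of 2. Acta2, Tagln and Isg15 lie on the side of control 3 and Col2a1, Ibsp, Serpina3n and Col10a1 on that of knockout 1, while Mmp3 lies near the line.

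Some of the largest differences between the 2 libraries belonged to replicate 3 of both genotypes in all cells. Over all filtered barcodes Plac9a was at 0.139, 0.112 and 509 CPM in control 1, 2 and 3 and at 0.148, 0.0207 and 232 in knockout 1, 2 and 3. Timm23 was at 4.19, 3.12 and 146 and at 4.48, 3.12 and 147, and Ube2s the other way, at 163, 280 and 11.5 and at 153, 337 and 14.9. These are the libraries with the other set of gene identifiers, and the part of that set in the difference was not tested.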

How the data were processed

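Per the labels and the methods, callus cells were captured with the 10x Chromium 3′ V3 kit, and the authors ran Cell Ranger (6.1.1 for replicate 1 of each genotype and 6.1.2 for replicates 2 and 3, from the matrix headers) on GRCm38. The deposited values are UMI counts per gene and barcode, not normalized. Here the UMIs of the 52081 gene identifiers shared by all libraries were summed per library and cell group and tested with edgeR 4.0.16 (TMM, filterByExpr, quasi-likelihood F test, Benjamini-Hochberg adjustment) in R 4.3.3. Levels are CPM of the summed cells, computed here. DESeq2 1.42.0 was run as an alternative, and Scrublet in scanpy 1.11.5 ranked doublets, which were kept. The steps were tested on simulated data. Of simulated 2-fold changes 18%, 16% and 25% were recovered against the Saa3/Cxcl5-low, Pi16/Clec3b and Penk/Aspn cells. Of 4-fold changes 94%, 89% and 97% were recovered in that order. A gene that was not called can thus still differ 2-fold.

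The members and the gene lists were chosen with earlier results of these data known. Named genes were the 10 highest and 10 lowest by fold change among called genes that had the same sign in both libraries and reached 50 CPM in the higher group, plus list members. The rule first written for Pi16/Clec3b fibroblasts found 16 cells, so a wider rule was set after seeing the data. The genotype fit was planned for libraries of at least 10 members and used at least 5. The study's methods and results give different numbers of mice, so whether each library came from 1 mouse is not settled. The exact test of shares measures the spread between libraries. The edgeR fits between cell groups take the library out as a block. With 2 libraries their p-values rest largely on a spread that edgeR estimates over all genes. The size of such a p-value is therefore no measure of how well a difference repeats between animals. Intervals cover counting error only. Of 402 list genes 399 matched a symbol, and promoters matched for 6 of 9 genes looked for.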

Additional observations from a re-analysis of the deposited data

How the results depend on the processing

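The difference in share between knockout and control changed direction with the stromal gate as denominator (-0.271 percentage points), with cells thinned to 3000 UMIs (-1.79) and with at least 1000 CPM of Saa3 and Cxcl5 (-0.899), and ranged from -4.81 to 7.12 when 1 library was left out, its lowest value without knockout 1 and its highest without control 3. It was 10.7 without replicate 3 of both genotypes. No setting passed the exact test.

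The number of genes called against the Saa3/Cxcl5-low cells (480) was 217 with at least 5 cells, 165 with DESeq2, 47 with thinned cells, 97 with the Saa3/Cxcl5-high cells against the under-500 cells (424 with the Saa3/Cxcl5-high cells and the other group unchanged) and 0 without the library as a block (457 at an unadjusted p under 0.05 by edgeR). Against the Pi16/Clec3b fibroblasts (511) it was 43, 174 and 149 in the first 3 of these settings and 43 without the block, and the alternative of at least 20 cells could not be fitted. Against the Penk/Aspn cells (632) it was 289 with thinned cells, 1844 without a filter on low counts, 1703 with at least 10 Saa3 and Cxcl5 UMIs, 1438 with the Saa3/Cxcl5-high cells and 0 without the block (1264 unadjusted). With thinned or 5-cell libraries fewer genes were tested. The cause of the other changes was not tested. Of the named genes' values under the alternatives that kept both libraries, 155 of 197, 126 of 148 and 152 of 177 kept their call in the 3 comparisons and none changed direction. Leaving out control 3 or knockout 1 left 1 library, so only values remained.

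For genotype, edgeR called 0 genes, 166 without a filter on low counts, 37 with doublets removed, and 0 to 35 with 1 library left out (35 without control 1 or knockout 2, 1 without control 2), settings in which more genes were tested. The deviations of same-numbered libraries correlated at 0.457, 0.242 and -0.115 for numbers 1, 2 and 3, so not every pair deviated together, and those of differently numbered ones at -0.468 to 0.343. Control 1 and 2 correlated best with their own number and control 3 with knockout 2. With the replicate number as a block the share differed by 2.43 points and edgeR called 0 genes. Libraries of 2 to 7 members limit what the genotype comparison can show.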
